A study of Homo sapiens with 9 samples.

Results

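The genes described here encode the proteasome, its activators, its inhibitor and its dedicated assembly factors. They were taken as every row of the expression table whose symbol begins with PSM, then a letter from A to G, then a number. PSMB8 and PSMB9, inducible immunoproteasome subunits, were left out. Of 48 matching symbols this left 46 genes among the 60564 in the table, and 44 of them were among the 12747 genes (21.0%) strong enough to be tested. The other 2, PSMA8 and PSMB11, are subunits typical of testis and thymus and lay at or below 0.0658 FPKM in every library. FPKM is the number of fragments per kilobase of transcript, scaled to the mapped fragments of the library, so levels can be compared between genes.

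The proteasome degrades proteins that carry ubiquitin. Its core particle is a stack of rings, with outer rings of alpha subunits that gate the entry and inner rings of beta subunits, some of which cut peptide bonds. A regulatory cap made of ATPases and of non-ATPase subunits binds ubiquitin, removes it, and unfolds and feeds the substrate into the core. Activators of the PSME family can take the place of the cap, and PSMG proteins are chaperones that help build the alpha ring. When proteasome capacity falls short, the transcription factor NFE2L1 is processed and raises proteasome genes together, so their transcripts often move as a set. Pancreatic cancer cells, like other secretory and fast-growing cells, carry a high load of protein turnover.

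Transcripts were measured by RNA-seq in BxPC3, an established human pancreatic ductal adenocarcinoma line grown in RPMI medium with serum. The 3 groups were vehicle, transfection with siRNA against STAT3, and the coded compound WB436B at 0.1 µM, with 3 libraries in each that the labels call biological replicates. No non-targeting siRNA is described, so the siRNA group differed from vehicle also by transfection, and time under treatment is not given in the sources used here. All 3 groups come from 1 cell line. P-values therefore reflect only how far libraries of a group differ, which may be technical.

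STAT3 stood at 16.4, 15.8 and 15.1 FPKM under vehicle, 2.98, 2.58 and 3.02 FPKM after the siRNA (18.1% of the vehicle mean) and 10.5, 10.9 and 10.8 FPKM under WB436B (68.0%). Its groups did not overlap, and an exact two-sided permutation test of each pair gave p = 0.1, the smallest that 3 against 3 libraries allow. All 7 markers of ductal epithelium reached 1 FPKM, with summed levels of 1100 to 1270 FPKM over the 9 libraries. The fibroblast markers summed to 1.79 to 2.00 FPKM under vehicle, 3.38 to 3.64 FPKM in the siRNA libraries and 0.709 to 0.853 FPKM under WB436B. The 3 leukocyte markers, of which only CD68 reached 1 FPKM, summed to 4.27 to 5.87 FPKM, 2.53 to 4.77 FPKM and 2.72 to 2.92 FPKM in the same order. The defining leukocyte marker PTPRC was at or below 0.0193 FPKM. Endothelial and acinar markers stayed under 1 FPKM each, and both endocrine markers were at 0. SMAD4, which this line has lost, was at 0 in all 9 libraries. Estimated depth ran from 14900000 to 20400000 fragments, except for the first vehicle library at 47200000. Mitochondrially encoded transcripts took 34.9% to 38.4% of summed FPKM under vehicle, 32.1% to 32.5% after the siRNA and 31.6% to 32.5% under WB436B. In the third vehicle library 38 of the 44 tested genes lay above the vehicle mean, against 13 and 15 in the other vehicle libraries. The part of these differences in the results below was not tested, beyond the fits without that library and with totals taken over the other transcripts.

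Most proteasome transcripts were higher under WB436B, those of the cap most often. Of the 44 tested genes 28 rose (63.6%), 3 fell (6.82%) and 13 were not called. A call needed an adjusted p below 0.05 (limma, Benjamini-Hochberg over all tested genes). Over all 12747 genes 24.9% rose and 41.1% fell, so the proteasome genes rose in a larger share than the table as a whole. Their median log2 fold change was 0.34, beside -0.13 over all genes. The comparison with all genes depends on how many weak genes are counted. Among the 7042 genes that reached 5 FPKM in 3 or more libraries, 34.8% rose, 34.3% fell and the median was 0.02. Of the 42 proteasome genes among them 27 rose and 3 fell, with a median of 0.38. In 30 of the 44 every WB436B library lay above every vehicle library (26.8% of all genes), and in 3 every one lay below (43.3%). By class, 9 of 15 core genes, 16 of 20 cap genes, 2 of 5 activator genes and 1 of 4 assembly genes rose. Of the 28 rises, 25 kept their call under each of the 19 other ways of processing tried. In bulk RNA the share of cells that carry a transcript and the amount per cell cannot be told apart.

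After STAT3 siRNA these genes moved both ways. Among the 44, 14 rose (31.8%), 8 fell (18.2%) and 22 were not called. Over all genes 29.8% rose and 22.3% fell, and the median log2 fold change was 0.08 for proteasome genes and 0.06 over all genes, so they stood close to the table. In 16 every siRNA library lay above every vehicle library (35.1% of all genes), and in 6 below (25.3%). The count that fell was 5 without the second vehicle library and 5 without the second siRNA library. Under median-of-ratios scaling 10 rose and 9 fell. By class, 4 of 15 core genes rose and 4 fell, 9 of 20 cap genes rose and 2 fell, no activator rose and 1 of 5 fell, and 1 of 4 assembly genes moved each way.

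Set directly against the siRNA group, WB436B gave higher levels of 25 genes (56.8%), lower levels of 4 (9.09%) and no call for 15. Over all genes 20.0% were higher and 44.1% lower. The median log2 difference was 0.22 for proteasome genes and -0.18 over all genes. With the filter of 5 FPKM 29.1% of all genes were higher and 36.7% lower, with a median of -0.06. Of the 42 proteasome genes kept by it 24 were higher and 4 lower, with a median of 0.22. This contrast is also the test of whether the 2 treatments differ in their effect. In 27 genes the WB436B libraries all lay above the siRNA libraries (22.7% of all genes), and in 7 below (47.5%). Cap genes gave 15 of the 25 higher calls and none of the lower ones.

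**Figure D1:**
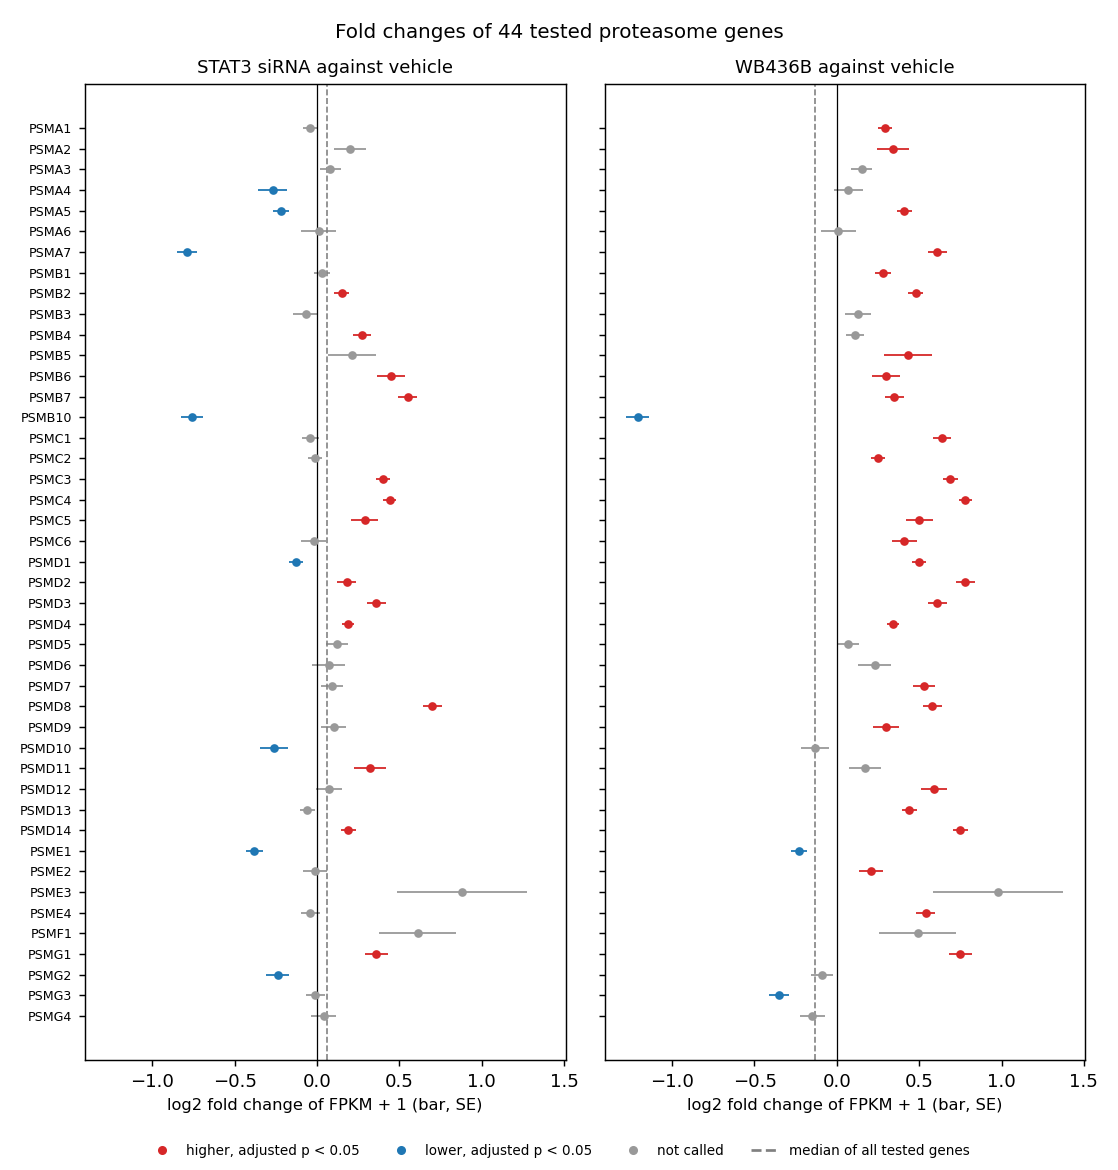
Log2 fold change of FPKM + 1 for the 44 tested proteasome genes against vehicle, after STAT3 siRNA and under WB436B, with bars of 1 standard error and colour by call; the dashed line is the median of all tested genes. Under WB436B most points lie right of 0 (28 called higher, 3 lower), while after the siRNA they lie on both sides (14 higher, 8 lower).

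Summed over the 46 genes, levels were 1220, 1220 and 1300 FPKM under vehicle, 1330, 1330 and 1320 FPKM after the siRNA, and 1690, 1630 and 1570 FPKM under WB436B. The WB436B mean was 131% of the vehicle mean and the siRNA mean 106%. The proteasome share of all FPKM rose in the same order, from a mean of 0.431% to 0.476% and 0.592%. All FPKM include the mitochondrially encoded transcripts, which took a larger part under vehicle. With totals over the other transcripts the median log2 fold change of the tested proteasome genes was 0.03 after the siRNA and 0.30 under WB436B. Over all genes it was then 0.02 and -0.16. The cap sums did not overlap between groups, at 448 to 475 FPKM under vehicle, 539 to 541 FPKM in the siRNA libraries and 655 to 676 FPKM under WB436B. These sums carry no test.

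Promoters were searched for short motifs, since proteasome genes are known targets of NFE2L1 and NFE2L2 and the siRNA targets STAT3. RefSeq promoters of GRCh38.p14, from 250 bases before to 50 after the transcription start, matched 38 of the 44 tested genes. The letters TGACNNNGC, the core that NFE2L1 and NFE2L2 bind with a small MAF partner, were found on either strand in 14 of the 38 (36.8%), against 19.3% of 8639 tested genes with a promoter. TTCNNNGAA, the form that STAT dimers recognise, was found in 6 (15.8%), against 8.33%. CCAAT, the site of NF-Y, was found in 18 (47.4%), against 43.4%. A match is only these letters, and describes neither binding nor a cause. The windows below show only some of the matches, 1 per gene and motif. They are printed 5′ to 3′ on the strand that carries the motif, with the motif in capitals.
PSMB3, core, chr17:38752627-38752655, plus strand: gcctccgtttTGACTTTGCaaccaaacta
PSMC5, cap ATPase, chr17:63827654-63827682, minus strand: agggcggcgcTGACACAGCagatccggtc
PSMD3, cap, chr17:39980760-39980788, plus strand: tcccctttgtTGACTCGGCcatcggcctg
PSMD12, cap, chr17:67366724-67366752, minus strand: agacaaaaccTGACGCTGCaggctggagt
PSME1, activator, chr14:24136098-24136126, plus strand: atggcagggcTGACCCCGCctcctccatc
PSMG1, assembly, chr21:39183616-39183644, minus strand: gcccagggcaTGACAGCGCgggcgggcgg
PSMC4, cap ATPase, STAT letters, chr19:39971100-39971128, plus strand: taaactacacTTCCCAGAAgcctcctcag
PSMD3, cap, STAT letters, chr17:39980703-39980731, plus strand: tccccgctccTTCCTCGAAgctcctcctt

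These genes did not move alike. PSMD3 and PSMC4 carry both motifs, in PSMC4 with the NFE2L1 and NFE2L2 letters past the start and not shown. Both genes rose under both treatments. The other genes with STAT letters were PSMA2, PSMB5, PSMD2 and PSME3. After the siRNA PSMA2, PSMB5 and PSME3 were not called. PSMD2 was called higher (0.18, adjusted p = 0.033), but not with median-of-ratios scaling (0.10, adjusted p = 0.19). Under WB436B PSMA2, PSMB5 and PSMD2 were called higher and PSME3 was not called. The windows of PSMC4, PSMC5 and PSMG1 lie wholly within annotated exons. PSMB3 was called in no comparison, and PSME1 fell under both treatments. The log2 fold changes under WB436B were 0.50 for PSMC5, 0.59 for PSMD12 and 0.75 for PSMG1.

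In the core particle the genes of the alpha and beta rings gave different counts after the siRNA. Of 7 tested alpha genes none rose and 3 fell, and of 8 beta genes 4 rose and 1 fell. Over all genes 29.8% rose and 22.3% fell, and counts of so few genes cannot set a ring apart from that. Alpha genes summed to 239, 239 and 259 FPKM under vehicle and to 191, 185 and 194 FPKM after the siRNA, 77.4% of the vehicle mean. Beta genes summed to 362, 346 and 372 FPKM under vehicle and 407, 421 and 411 FPKM after the siRNA, 115% of it. Under WB436B both rings were higher, with alpha at 135% and beta at 118% of vehicle. The difference between the rings was not tested.

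Much of the alpha sum came from 1 gene. PSMA7, an alpha subunit (GRCh38, chromosome 20, 62136735 to 62143440, minus strand), stood at 125, 119 and 128 FPKM under vehicle. It was at 70.2, 70.7 and 74.2 FPKM after the siRNA and at 206, 185 and 179 FPKM under WB436B, so the 3 groups did not overlap. It was the strongest alpha gene in each group and held 50.5% of the alpha sum under vehicle, 37.7% after the siRNA and 57.1% under WB436B. The log2 fold change was -0.79 (SE 0.0584, adjusted p = 1.4e-05) after the siRNA and 0.61 (adjusted p = 2.7e-05) under WB436B. The level under WB436B was 265% of that after the siRNA, 1.39 more on the log2 scale (adjusted p = 5.1e-07). No annotated exon of another gene overlapped it.

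The other tested alpha genes lay between 15.3 and 30.0 FPKM in every library. PSMA5 showed the pattern of PSMA7 at smaller size, with 21.1, 21.6 and 23.5 FPKM under vehicle, 19.2, 18.9 and 18.4 FPKM after the siRNA, and 30.0, 29.6 and 29.4 FPKM under WB436B. Its log2 fold changes were -0.22 (adjusted p = 0.0045) and 0.41 (adjusted p = 7.1e-05), and the treatments differed by 0.63 (adjusted p = 8.1e-06). PSMA1 rose under WB436B (0.29, adjusted p = 0.00032) and was not called after the siRNA (-0.04). PSMA2 rose under WB436B (0.34, adjusted p = 0.014), with the first WB436B library at 26.6 FPKM and the others at 20.4 FPKM. PSMA3 and PSMA6 were called in no comparison, and their libraries overlapped between vehicle and siRNA. Under WB436B PSMA6 overlapped vehicle too, while PSMA3 did not, at 27.2 to 28.4 FPKM against 23.5 to 25.6 FPKM (0.15, adjusted p = 0.059). Without the second or the third siRNA library in the fit PSMA3 was called higher under WB436B (0.15 each, adjusted p = 0.024 and 0.046), as it was with 2 other scalings and in a fit of only those groups. PSMA4 was called lower after the siRNA (-0.27, adjusted p = 0.033), but this call was lost without the second or the third vehicle library (-0.26 and -0.17, adjusted p = 0.075 and 0.073) and without the second or the third siRNA library (-0.25 each, adjusted p = 0.085 and 0.090).

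The constitutive catalytic subunits were higher under WB436B. PSMB5, which carries the chymotrypsin-like site that proteasome inhibitors block, stood at 39.1, 30.3 and 36.2 FPKM under vehicle, 37.8, 40.9 and 43.8 FPKM after the siRNA, and 58.9, 46.5 and 39.2 FPKM under WB436B. Its WB436B libraries were spread widely, with a coefficient of variation of 20.6%, and the lowest barely cleared the highest vehicle library. The log2 fold change of 0.43 (SE 0.146, adjusted p = 0.028) lost its call without the second or the third vehicle library (0.33 and 0.45, adjusted p = 0.095 and 0.051) and without the first or second WB436B library (0.28 and 0.45, adjusted p = 0.079 and 0.056). PSMB6, the caspase-like subunit, stood at 32.5, 34.5 and 35.5 FPKM under vehicle, 45.0, 49.2 and 47.1 FPKM after the siRNA, and 48.6, 40.6 and 38.4 FPKM under WB436B. It rose after the siRNA (0.45, SE 0.0839, adjusted p = 0.0022) and under WB436B (0.30, adjusted p = 0.012), the latter not with quantile normalization (0.17, adjusted p = 0.075). PSMB7, the trypsin-like subunit, stood at 69.2, 63.1 and 68.8 FPKM under vehicle, 96.5, 99.1 and 99.8 FPKM after the siRNA, and 89.9, 87.8 and 79.1 FPKM under WB436B. Neither treated group overlapped vehicle, and the rises were 0.55 (SE 0.0580, adjusted p = 9.8e-05) and 0.35 (adjusted p = 0.00078). WB436B was lower than the siRNA by 0.20 (a log2 difference of -0.20, adjusted p = 0.014), a difference of 0.00 under median-of-ratios scaling.

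PSMB10 went the other way. It encodes the immunoproteasome counterpart of PSMB7, which takes its place in cells exposed to interferon. It stood at 18.9, 16.4 and 17.5 FPKM under vehicle, 9.50, 9.55 and 10.8 FPKM after the siRNA, and 6.66, 7.15 and 7.23 FPKM under WB436B, and no groups overlapped. The siRNA mean was 56.6% of vehicle (log2 fold change -0.76, SE 0.0678, adjusted p = 3.7e-05) and the WB436B mean 39.9% (-1.21, adjusted p = 1.2e-06). WB436B was also lower than the siRNA (-0.45, adjusted p = 0.00046). It was the only tested core gene that fell under WB436B, and the weakest tested beta gene in each group. In the annotation 34.8% of its exon bases lie in another gene on the same strand, AC040162.1, and how the authors divided such fragments is not known.

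Among the structural beta subunits PSMB2 rose most under WB436B, from 27.9, 29.1 and 30.2 FPKM under vehicle to 39.8, 42.4 and 40.9 FPKM. Its siRNA libraries lay between, at 32.8, 31.3 and 33.2 FPKM. The log2 fold change under WB436B was 0.48 (SE 0.0455, adjusted p = 2.4e-05). PSMB1 rose under WB436B (0.28, adjusted p = 0.0012) and was not called after the siRNA (0.03). PSMB4 rose after the siRNA (0.27, adjusted p = 0.0036) and was not called under WB436B (0.11). PSMB3 was called in neither, but without the second siRNA library or the third WB436B library it was called higher under WB436B than after the siRNA (0.27 and 0.23, adjusted p = 0.013 and 0.048).

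**Figure D2:**
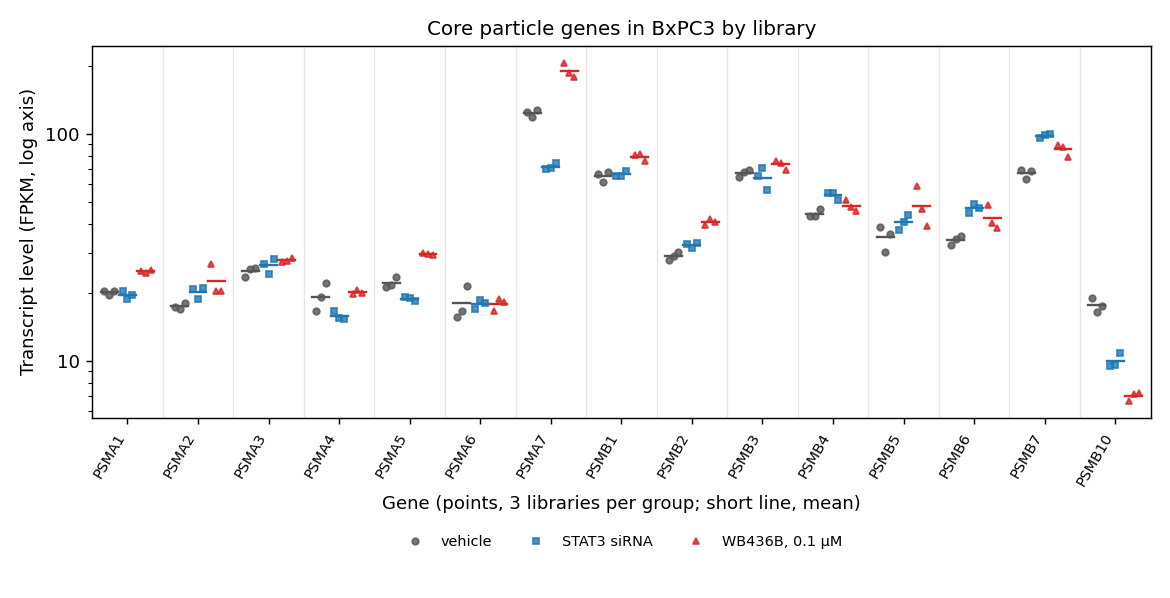
FPKM on a log axis for the 15 tested core genes, with a point per library and a short line for the mean of each group. PSMA7 is low after the siRNA (70.2 to 74.2 FPKM) and high under WB436B (179 to 206 FPKM), while PSMB10 is highest under vehicle (16.4 to 18.9 FPKM).

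The 6 cap ATPases, which form the ring that unfolds substrates, rose together under WB436B. All 6 were called, with a median log2 fold change of 0.57, beside 24.9% called higher over all genes. After the siRNA 3 of 6 were called, all higher, with a median of 0.14. Over all genes 29.8% rose after the siRNA, and a count of 3 in 6 cannot be set apart from that. PSMC4 rose most, with 34.7, 33.8 and 34.4 FPKM under vehicle, 46.7, 46.4 and 47.5 FPKM with the siRNA and 61.5, 60.6 and 57.0 FPKM under WB436B. These groups did not overlap, and the log2 fold changes were 0.44 (SE 0.0393, adjusted p = 3.9e-05) and 0.78 (adjusted p = 6.9e-07). PSMC3, the strongest ATPase in each group, was at 55.8 to 61.1 FPKM under vehicle, 75.8 to 78.7 FPKM with the siRNA and 91.6 to 97.1 FPKM with WB436B. PSMC5 stood at 13.3, 14.5 and 17.0 FPKM under vehicle, 18.4, 18.5 and 18.1 FPKM after the siRNA and 20.1, 21.5 and 22.8 FPKM under WB436B. Its rise after the siRNA (0.29, adjusted p = 0.018) lost its call without the first or second vehicle library (0.21 and 0.27, adjusted p = 0.054 each).

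The other 3 ATPases moved under WB436B and were not called after the siRNA. PSMC2 was 34.7 to 36.9 FPKM under vehicle, 33.7 to 36.4 FPKM in the siRNA libraries and 42.0 to 42.4 FPKM under WB436B. PSMC6, the weakest, was 10.6 to 12.6 FPKM, 10.3 to 12.0 FPKM and 15.2 to 16.1 FPKM. PSMC1 was 15.3 to 16.8 FPKM, 15.0 to 16.2 FPKM and 24.0 to 26.1 FPKM. All 3 were higher under WB436B than after the siRNA, with PSMC1 at 0.67 on the log2 scale (SE 0.0535, adjusted p = 1.2e-05). The near copy PSMC1P1, annotated as a pseudogene, was listed at 18.0 to 21.4 FPKM, 16.9 to 20.2 FPKM and 30.7 to 33.5 FPKM. Fragments of PSMC1 and this copy may be shared, and 75.8% of the exon bases of PSMC1 lie opposite exons of NRDE2, so its level is uncertain.

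The non-ATPase part of the cap holds the ubiquitin receptors, the deubiquitinase and the scaffold of the lid and base. Of its 14 PSMD genes 10 rose under WB436B and none fell, beside 24.9% and 41.1% over all genes. Without the assembly chaperones named below, 9 of 11 rose. PSMD2, a base scaffold on which shuttle factors dock, had the same log2 fold change as PSMC4. It stood at 45.1, 45.8 and 42.9 FPKM under vehicle, 52.2, 53.4 and 46.3 FPKM after the siRNA, and 80.4, 76.1 and 76.0 FPKM under WB436B. The WB436B libraries lay far above the others, at 174% of the vehicle mean (log2 fold change 0.78, SE 0.0591, adjusted p = 6.5e-06). PSMD1, the other large base scaffold, was 21.0, 20.0 and 20.1 FPKM under vehicle, 18.6, 19.2 and 17.7 FPKM after the siRNA, and 29.1, 29.5 and 28.9 FPKM under WB436B. It rose by 0.50 under WB436B (adjusted p = 1.4e-05) and exceeded the siRNA group by 0.63 (SE 0.0426, adjusted p = 4.9e-06). Its fall after the siRNA (-0.13, adjusted p = 0.028) was small and lost its call without the first or second vehicle library (-0.11 and -0.14, adjusted p = 0.092 and 0.050) or the first or the third siRNA library (-0.14 and -0.10, adjusted p = 0.063 and 0.099).

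PSMD14, the metalloprotease that removes ubiquitin chains from substrates as they enter, stood at 8.12, 8.01 and 8.49 FPKM under vehicle, 9.56, 9.07 and 9.86 FPKM after the siRNA, and 14.9, 14.4 and 14.1 FPKM under WB436B. The groups did not overlap. It rose by 0.75 under WB436B (adjusted p = 2.3e-06, 176% of vehicle) and by 0.19 after the siRNA (adjusted p = 0.0097), though not with median-of-ratios scaling (0.12, adjusted p = 0.067). PSMD4, a ubiquitin receptor, stood at 28.6, 27.6 and 28.8 FPKM under vehicle, 32.3, 32.0 and 33.4 FPKM after the siRNA, and 36.8, 36.0 and 35.7 FPKM under WB436B. Its rises were 0.19 (adjusted p = 0.0026) and 0.34 (adjusted p = 6.0e-05), small but with no overlap between groups.

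PSMD8, a lid subunit, rose after both treatments. It stood at 44.7, 42.3 and 49.4 FPKM under vehicle, 72.8, 75.0 and 75.3 FPKM after the siRNA, and 69.8, 67.4 and 67.6 FPKM under WB436B. The log2 fold changes were 0.70 (SE 0.0560, adjusted p = 2.1e-05) and 0.58 (adjusted p = 2.9e-05), and the difference of -0.12 between treatments was not called. It was called without the third vehicle library (-0.12, adjusted p = 0.024), in a fit of only those groups (-0.12, adjusted p = 0.026) and with quantile normalization (-0.27, adjusted p = 0.00096). PSMD3 rose in both (0.36 and 0.61, adjusted p = 0.00098 and 2.5e-05). PSMD7, PSMD12 and PSMD13 rose under WB436B (0.53, 0.59 and 0.44) and were not called after the siRNA. PSMD6 was called in no comparison, though without the third WB436B library it was called higher there (0.32, adjusted p = 0.021), as it was with each of 3 other scalings. PSMD11 was called higher after the siRNA (0.32, adjusted p = 0.021). That call was lost without the first or the third vehicle library (0.27 and 0.25, adjusted p = 0.071 and 0.067) or the first or the second siRNA library (0.32 and 0.29, adjusted p = 0.052 and 0.065), and without the second vehicle library PSMD11 was called higher under WB436B (0.29, adjusted p = 0.0028).

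PSMD5, PSMD9 and PSMD10 carry cap symbols but act as chaperones that assemble the cap base and leave the finished particle. Their sum did not follow the cap, at 38.8 to 45.9 FPKM under vehicle, 40.0 to 42.8 FPKM in the siRNA libraries and 42.5 to 43.2 FPKM under WB436B. PSMD9, the weakest of the 20 cap genes, rose under WB436B (0.30, adjusted p = 0.0078), with 3.00 to 3.65 FPKM under vehicle and 3.87 to 4.55 FPKM under WB436B. PSMD5 was called in no comparison. With median-of-ratios scaling it was called higher under WB436B (0.19, adjusted p = 0.027), and with equal totals after the siRNA (0.17, adjusted p = 0.047). PSMD10, also known as gankyrin, was called lower after the siRNA (-0.26, adjusted p = 0.030) although its libraries overlapped. This call was lost without the second or the third vehicle library (-0.22 and -0.20, adjusted p = 0.097 and 0.095) or the first or the second siRNA library (-0.22 and -0.27, adjusted p = 0.096 and 0.064), and without the first vehicle library a fall under WB436B was called (-0.23, adjusted p = 0.010).

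**Figure D3:**
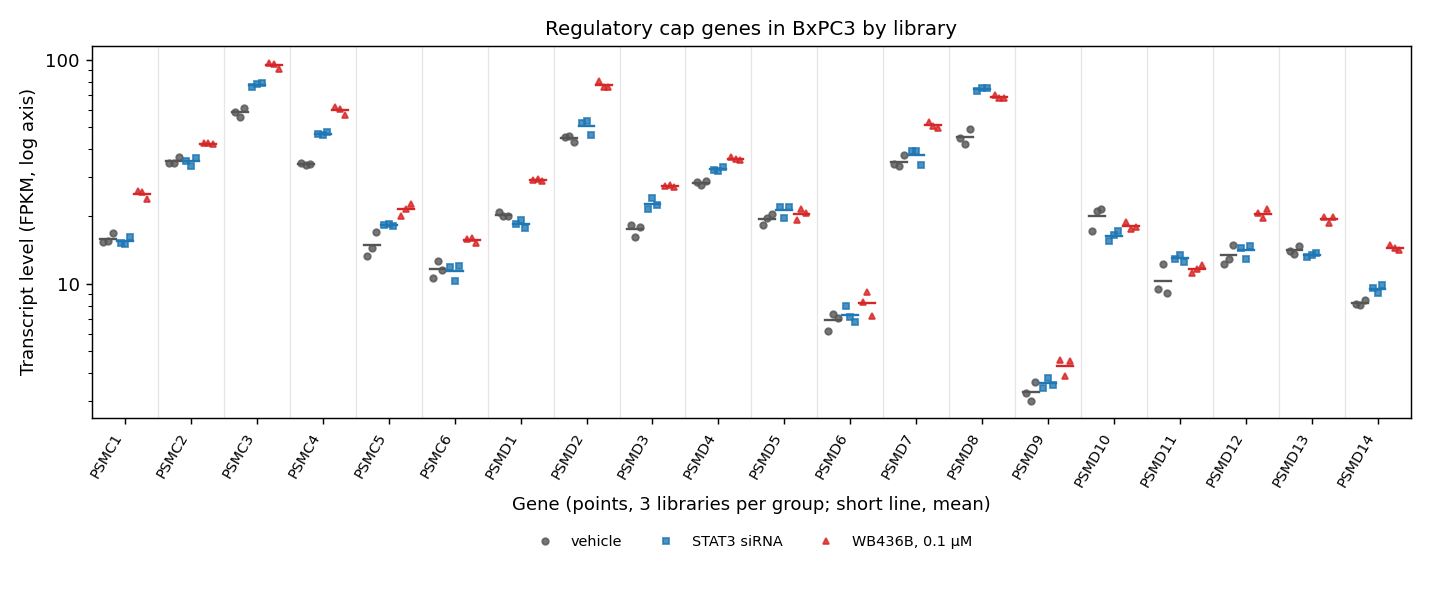
FPKM on a log axis for the 20 cap genes, with a point per library and a short line for the mean of each group. All 6 PSMC genes sit higher under WB436B than under vehicle, as do most PSMD genes, while PSMD8 is high in both treated groups (67.4 to 75.3 FPKM, against 42.3 to 49.4 FPKM).

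The activators did not move as a group. PSME1 and PSME2 encode the subunits of the interferon-inducible PA28 ring and lie near each other on chromosome 14. PSME1 stood at 70.7, 72.8 and 78.0 FPKM under vehicle, 56.0, 57.6 and 55.8 FPKM after the siRNA, and 64.7, 63.4 and 59.7 FPKM under WB436B. Both treated groups lay below vehicle, by -0.38 (SE 0.0492, adjusted p = 0.00030) and -0.23 (adjusted p = 0.0029) on the log2 scale, the latter lost with median-of-ratios scaling (-0.10, adjusted p = 0.089). PSME2 stood at 35.7, 42.0 and 41.9 FPKM under vehicle, 39.7, 37.7 and 41.1 FPKM after the siRNA, and 49.5, 45.1 and 44.4 FPKM under WB436B. It was called higher under WB436B (0.21, SE 0.0730, adjusted p = 0.029), but not without the first vehicle library (0.14, adjusted p = 0.083) or the first WB436B library (0.17, adjusted p = 0.098). The partners of this ring therefore had calls of opposite sign under WB436B, both of them sensitive to the alternatives.

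PSME4 encodes PA200, a single-chain activator with roles in chromatin. It stood at 11.3, 11.8 and 10.3 FPKM under vehicle, 11.2, 10.5 and 10.4 FPKM after the siRNA, and 17.3, 16.3 and 16.0 FPKM under WB436B. The rise of 0.54 under WB436B (SE 0.0588, adjusted p = 5.9e-05) had no counterpart after the siRNA, and the treatments differed by 0.58 (adjusted p = 4.4e-05). PSME3, the nuclear PA28 gamma activator, varied more between libraries than any other tested gene under vehicle and after the siRNA. It stood at 6.88, 9.09 and 15.2 FPKM under vehicle, 28.5, 22.2 and 10.7 FPKM after the siRNA, and 24.3, 25.2 and 13.8 FPKM under WB436B. The third library was the highest of the vehicle group and the lowest of each treated group. Its coefficients of variation were 41.5%, 44.1% and 29.9%, against medians over the 44 genes of 5.89%, 4.26% and 4.11%. The log2 fold changes of 0.88 (SE 0.396, adjusted p = 0.096) and 0.98 (adjusted p = 0.056) were not called. Without the third vehicle library they were 1.17 (adjusted p = 0.049) and 1.26 (adjusted p = 0.029), and without the third siRNA library the first was 1.27 (adjusted p = 0.020). Without the third WB436B library the WB436B change was 1.24 (adjusted p = 0.034), and it was also called without the first siRNA library (0.98, adjusted p = 0.048) or the third (0.98, adjusted p = 0.025).

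PSMF1, a proteasome inhibitor also known as PI31, stood at 7.51, 10.2 and 10.2 FPKM under vehicle, 13.8, 16.6 and 13.6 FPKM after the siRNA, and 8.73, 14.9 and 18.2 FPKM under WB436B. Its siRNA libraries lay above vehicle, but neither change was called (0.61, SE 0.232, adjusted p = 0.055, and 0.49, adjusted p = 0.093). The coefficient of variation under WB436B was 34.6%. The siRNA change was called without the first or the third WB436B library (0.61 each, adjusted p = 0.0074 and 0.032), and the WB436B change without the first WB436B library (0.77, adjusted p = 0.0032).

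The assembly chaperones work in pairs, PSMG1 with PSMG2 and PSMG3 with PSMG4. PSMG1 stood at 10.9, 12.4 and 13.3 FPKM under vehicle, 15.6, 16.2 and 15.9 FPKM after the siRNA, and 22.2, 21.3 and 20.1 FPKM under WB436B. It rose without overlap in both, by 0.36 (SE 0.0702, adjusted p = 0.0029) and 0.75 (adjusted p = 2.2e-05, 174% of vehicle), and WB436B exceeded the siRNA by 0.40 (adjusted p = 0.0011). PSMG2 stood at 10.4, 11.2 and 12.7 FPKM under vehicle, 9.50, 9.31 and 9.68 FPKM after the siRNA, and 10.7, 11.1 and 10.2 FPKM under WB436B. It was called lower after the siRNA (-0.24, adjusted p = 0.018), but not without the second siRNA library (-0.23, adjusted p = 0.052), and was not called under WB436B (-0.09).

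PSMG3 stood at 13.3, 15.5 and 14.4 FPKM under vehicle, 14.2, 14.9 and 13.8 FPKM after the siRNA, and 11.1, 11.2 and 10.8 FPKM under WB436B. It fell under WB436B alone, to 76.6% of vehicle (-0.35, SE 0.0592, adjusted p = 0.00078), and lay below the siRNA group by the same amount (-0.35, adjusted p = 0.00093). With PSMB10 and PSME1 it made up the genes that fell under WB436B. PSMG4 was weak, at 1.35, 0.979 and 1.24 FPKM under vehicle, 1.35, 1.17 and 1.23 FPKM after the siRNA, and 1.01, 0.906 and 1.00 FPKM under WB436B. It was called in no comparison, with log2 fold changes of 0.04 after the siRNA and -0.15 under WB436B. Without the second vehicle library it was called lower under WB436B than under vehicle (-0.22, adjusted p = 0.028) and than after the siRNA (-0.19, adjusted p = 0.031). The latter was also called in a fit of only those groups (adjusted p = 0.031) and with no variance trend (adjusted p = 0.045).

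**Figure D4:**
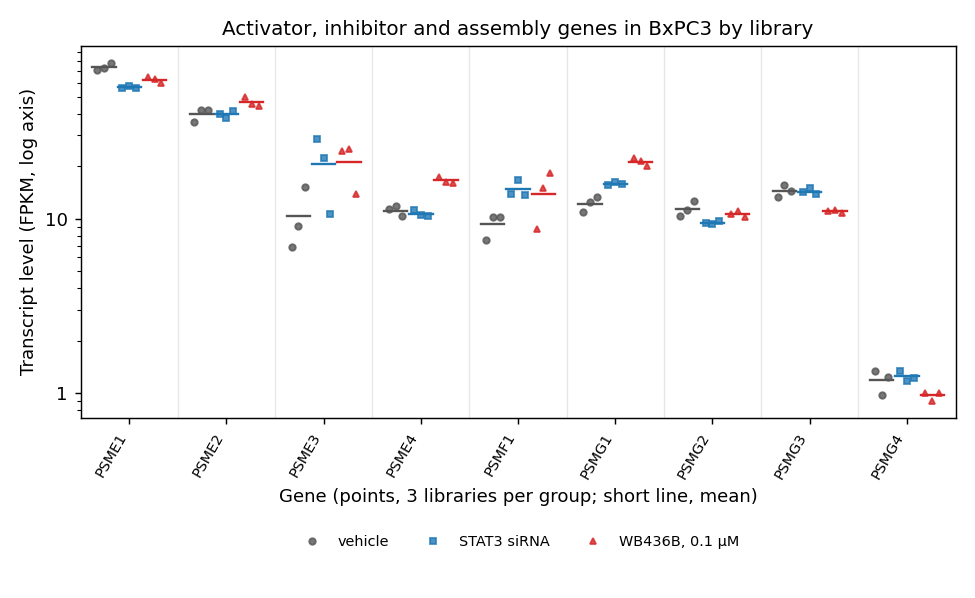
FPKM on a log axis for the 5 activator and inhibitor genes and the 4 assembly genes, with a point per library and a short line for the mean of each group. PSME4 and PSMG1 sit apart under WB436B, PSMG3 sits low there (10.8 to 11.2 FPKM), and the PSME3 and PSMF1 libraries scatter within groups.

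A list of 28 other genes that assemble, supply or regulate the proteasome was examined beside these, and all 28 were tested. Under WB436B 14 rose (50.0%), 2 fell (7.14%) and 12 were not called, beside 24.9% and 41.1% over all genes, with a median log2 fold change of 0.16. After the siRNA 8 rose (28.6%), 4 fell (14.3%) and 16 were not called, beside 29.8% and 22.3% over all genes (median 0.08). Between treatments 12 were higher under WB436B (42.9%) and 4 lower (14.3%), beside 20.0% and 44.1% over all genes (median 0.05). POMP, the chaperone that completes the core particle, stood at 35.4, 40.1 and 41.6 FPKM under vehicle, 45.8, 41.3 and 47.7 FPKM after the siRNA, and 55.3, 57.7 and 51.1 FPKM under WB436B. It rose under WB436B (0.48, adjusted p = 0.00071). After the siRNA it was not called (0.20, adjusted p = 0.063), except without the third vehicle library (0.25, adjusted p = 0.047) or the second siRNA library (0.26, adjusted p = 0.032), and with 2 other scalings.

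The list holds 2 cap subunits outside the PSM symbols. SEM1, a small lid subunit, was not called in any comparison (0.06 after the siRNA and 0.02 under WB436B). ADRM1, a ubiquitin receptor, stood at 46.9, 44.7 and 43.0 FPKM under vehicle, 56.7, 62.0 and 57.0 FPKM after the siRNA, and 85.3, 79.4 and 80.5 FPKM under WB436B. It rose by 0.38 (adjusted p = 0.00047) and 0.85 (adjusted p = 2.1e-06). UCHL5, the deubiquitinase that ADRM1 holds on the cap, stood at 4.78 to 5.72 FPKM under vehicle, 5.21 to 5.40 FPKM in the siRNA libraries, and 9.31 to 10.4 FPKM under WB436B. It rose under WB436B alone (0.80, adjusted p = 1.1e-05), and the treatments differed by 0.79 (adjusted p = 1.5e-05). UBE3C, a ubiquitin ligase bound to the proteasome, fell after the siRNA (-0.38, adjusted p = 0.00070) and rose under WB436B (0.52, adjusted p = 6.5e-05). Its level was 0.90 higher under WB436B than after the siRNA (adjusted p = 3.8e-06). VCP, the segregase that extracts substrates, fell after the siRNA too (-0.31, adjusted p = 0.00023) and rose under WB436B (0.21, adjusted p = 0.0013). WB436B was 0.52 above the siRNA for it (adjusted p = 8.1e-06).

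Shuttle factors carry ubiquitinated proteins to the cap. RAD23B rose in both treatments (0.32, adjusted p = 0.00056, and 0.53, adjusted p = 1.5e-05). UBQLN4 rose most after the siRNA (0.81, adjusted p = 1.2e-05), with 10.8 to 11.4 FPKM under vehicle and 19.3 to 21.9 FPKM in the siRNA libraries. WB436B was below the siRNA for it (-0.25, adjusted p = 0.0058), which median-of-ratios scaling reduced to -0.05 (adjusted p = 0.48). UBQLN2 fell under WB436B, with 9.89, 10.6 and 10.8 FPKM under vehicle, 9.32, 9.93 and 10.2 FPKM after the siRNA, and 4.09, 3.59 and 4.47 FPKM under WB436B. Its log2 fold change of -1.18 (adjusted p = 1.8e-06) stood against the rises of UBQLN1 and UBQLN4.

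The transcription factors themselves did not rise. NFE2L1, which drives proteasome genes after inhibition, stood at 44.1, 44.9 and 30.6 FPKM under vehicle, 38.6, 27.0 and 37.3 FPKM after the siRNA, and 27.9, 28.8 and 27.6 FPKM under WB436B. It was called lower under WB436B (-0.47, adjusted p = 0.035), but this was lost without the first or second vehicle library (-0.39 and -0.38, adjusted p = 0.11 each) and without the first, second or the third WB436B library (-0.46, -0.49 and -0.46, adjusted p = 0.078, 0.067 and 0.080). NFE2L2, its relative in the oxidative stress response, stood at 27.0, 32.4 and 36.1 FPKM under vehicle, 25.5, 25.2 and 26.6 FPKM after the siRNA, and 24.4, 29.6 and 28.0 FPKM under WB436B. Its call after the siRNA (-0.29, adjusted p = 0.047) was lost without the second or the third vehicle library (-0.27 and -0.19, adjusted p = 0.11 and 0.14), without any 1 siRNA library (-0.28, -0.27 and -0.31, adjusted p = 0.10, 0.11 and 0.076), and without the second or the third WB436B library (-0.29 each, adjusted p = 0.051 and 0.063). DDI2, the protease that cleaves NFE2L1 into its active form, fell after the siRNA (-0.40, adjusted p = 0.0013) and was not called under WB436B (0.09). NGLY1, the enzyme that removes sugars from NFE2L1, was lower under WB436B than after the siRNA (-0.19, adjusted p = 0.015), a sign that turned with quantile normalization (0.12, adjusted p = 0.090). Protein levels, processing and nuclear entry of these factors were not measured.

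**Figure D5:**
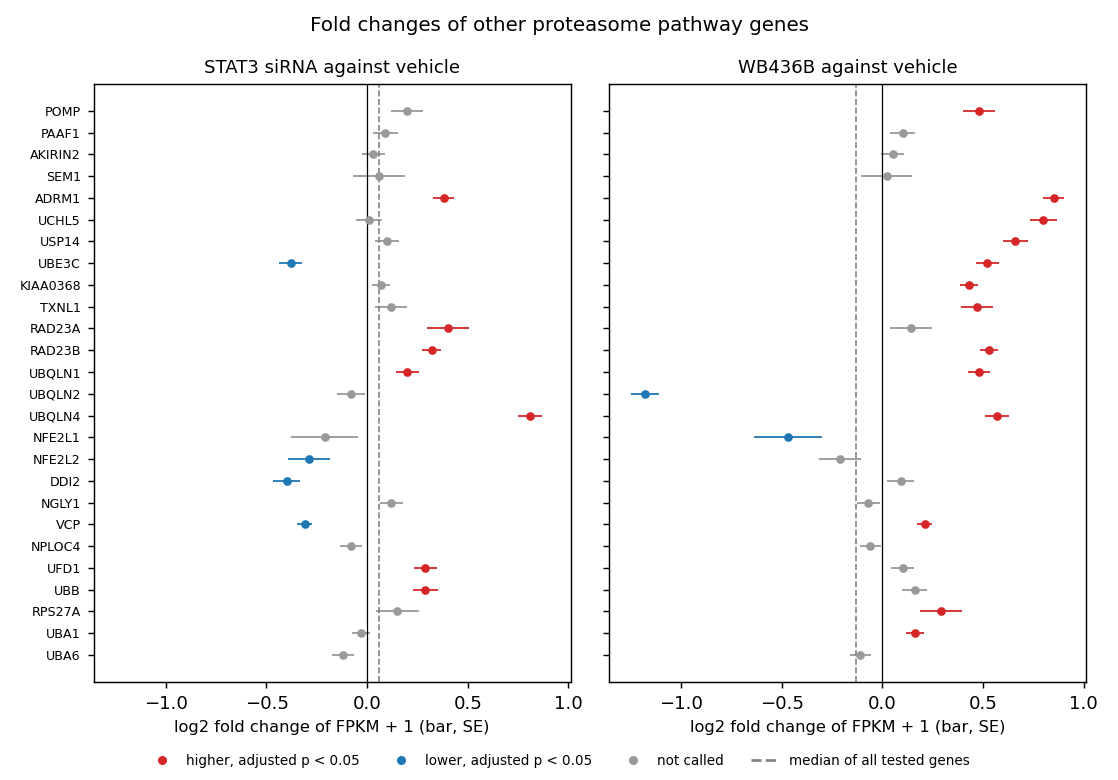
Log2 fold change of FPKM + 1 for other pathway genes of the list against vehicle, after STAT3 siRNA and under WB436B, with bars of 1 standard error and colour by call; KIAA0368 is the table's symbol for ECPAS. ADRM1 (0.85) and UCHL5 (0.80) lie farthest right under WB436B, and UBQLN2 (-1.18) lies farthest left.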

How the data were processed

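The authors deposited FPKM values for the 9 libraries in a single table, whose 3 empty columns were not used. RNA was isolated with an RNeasy kit and libraries followed Illumina procedures, per the labels' protocols. Bowtie 0.12.2 and build mm8 are named in the submitters' processing notes. Since mm8 is a mouse build and the gene identifiers are human, the build used is uncertain. The sources used here do not name the quantifier or strandedness, and FPKM depend on how fragments of overlapping or near-identical genes were divided.

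Genes that reached 1 FPKM in 3 or more libraries were tested on log2(FPKM + 1), which understates changes of weak genes. One limma-trend model held all 9 libraries, with a mean per group and 6 residual degrees of freedom (limma 3.58.1, R 4.3.3). Tests were two-sided, with Benjamini-Hochberg adjustment over all 12747 tested genes and a threshold of 0.05. SE is the standard error of the log2 value beside it. The script was tested on simulated data. Library depth was inferred from the spacing of low FPKM values in single-transcript genes over 500 bases long, and it limits weak genes most. Gene positions and exon overlap came from GENCODE release 29, and promoters from RefSeq GRCh38.p14.

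Per-library values were given for catalytic, receptor, deubiquitinase, activator and assembly genes, and for up to 2 called genes per class, direction and comparison, by size of change with libraries not overlapping. Of the other pathway genes up to 3 per direction were named by smallest adjusted p, and NFE2L1, NFE2L2 and POMP always. Of that list 2 genes entered the counts and are not reported here. The genes, lists and tests were chosen with earlier results of these data known. Alternatives covered the pseudocount, the filter, scaling between libraries, the variance model, the replicate block and leaving out each library.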

Additional observations from a re-analysis of the deposited data

How the results depend on the processing

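Of the calls made, 9 of 14 rises and 4 of 8 falls after the siRNA, 25 of 28 rises and 2 of 3 falls under WB436B, and 18 of 25 higher and 2 of 4 lower calls between treatments held under all 18 other settings and 1 added after seeing the data (totals without mitochondrially encoded genes). The median of the proteasome genes moved with median-of-ratios scaling to 0.01 after the siRNA, 0.47 under WB436B and 0.41 between treatments, with equal totals to 0.41 under WB436B, and with quantile normalization to 0.14 between treatments. Fitting only the groups compared gave 5 falls after the siRNA and 7 lower calls between treatments, and median-of-ratios scaling gave 2 of the latter. Leaving out 1 library at a time gave 10 to 16 rises and 5 to 8 falls after the siRNA, 27 to 30 rises and 3 to 4 falls under WB436B, and 21 to 26 higher and 3 to 6 lower calls between treatments. Median-of-ratios scaling ended or turned the sign between treatments for PSMB7 (0.00) and PSMB4 (0.05). Quantile normalization turned it for PSME1 between treatments (-0.03) and for NGLY1 (0.22 under WB436B, 0.12 between treatments). The cause was not tested. Scaling also moved the median of all genes under WB436B from -0.13 to -0.03 (median-of-ratios) and 0.03 (quantile), and between treatments from -0.18 to -0.02 and 0.00. The upward share of all calls under WB436B was 37.7%, and 53.0% with quantile normalization; between treatments it was 31.2%, 50.0% with quantile normalization and 48.2% with median-of-ratios scaling. Same-numbered libraries correlated in their deviations at -0.0847 to 0.158 and others at -0.124 to 0.0740. Between vehicle and siRNA the same-numbered pairs, at 0.0419, 0.119 and 0.158, lay above all others, at -0.124 to 0.0144. Same-numbered pairs with WB436B lay at -0.0847 to 0.0376. Whether the numbers mark a pairing was not tested. A replicate block gave 15 rises and 6 falls after the siRNA, 28 and 3 under WB436B, and 22 and 4 between treatments, with medians of 0.08, 0.34 and 0.22. Exon overlap limits single genes. Of the 24 tested genes with 0.0% of exon bases shared 18 rose and 0 fell under WB436B. Of the 20 with a larger share 10 rose and 3 fell, beside 24.9% and 41.1% over all genes. Among those that fell, PSME1 and PSMG3 shared only 0.5% and 3.1%, with genes on the opposite strand, and PSMB10 34.8%. The part of overlap in the calls was not tested.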

Other observations

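UBB is a gene that supplies ubiquitin, the tag that the proteasome reads. It stood at 141, 136 and 149 FPKM under vehicle, 172, 188 and 161 FPKM after the siRNA, and 152, 162 and 161 FPKM under WB436B. It rose after the siRNA (log2 fold change 0.29, limma adjusted p = 0.0054) and was not called under WB436B (0.16, adjusted p = 0.056). The latter was called without the third vehicle library (0.19, adjusted p = 0.040) or the second or the third siRNA library (0.16 each, adjusted p = 0.029 and 0.039). Median-of-ratios scaling (0.29, adjusted p = 0.0037) and equal totals (0.23, adjusted p = 0.019) gave a call as well. So did a model of the vehicle and WB436B libraries alone (0.16, adjusted p = 0.036).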
